A study of Mus musculus with 8 samples.

Results

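Chemokines and their receptors were examined in RNA of tumour-infiltrating cells, sorted as CD8 T cells, of wild-type mice and Cd36 knockout mice bearing B16 melanoma. The genes were chosen by name: every gene with a protein-coding transcript and a numbered Ccl, Cxcl, Ccr or Cxcr symbol, together with Xcl1, Xcr1, Cx3cl1, Cx3cr1 and Ackr1 to Ackr4. This gave 60 genes of the 55335 in the files, namely 38 ligands, 18 receptors and 4 atypical receptors. The WT group was wild type on the C57BL/6 background. The CD36_KO group carried the knockout of Cd36, a scavenger receptor for fatty acids and oxidised lipoproteins, on the same named background. Mice of both groups received B16 cells, a mouse melanoma line, through a vein, and tumours grew for 14 days. The sources used here do not give age, sex, the sorting gates or how many animals each library holds. By their titles, the 8 samples are 4 sequencing lanes of 1 library per genotype, so lanes were summed and no difference between the genotypes has a replicate check.

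Chemokines are small secreted proteins that guide cell movement by binding receptors coupled to inhibitory G proteins. They are classed by the spacing of their first cysteines. CC chemokines mostly act on monocytes, macrophages, dendritic cells and T cells. CXC chemokines with the residues glutamate, leucine and arginine (ELR) just before the cysteines attract neutrophils through Cxcr2, and those without them mostly attract lymphocytes. In tumours, Cxcr3 and its ligands bring in effector T cells, Ccr2 and its ligands bring in monocytes, and Ccr7 marks cells that home to lymph nodes. Atypical receptors bind chemokines without G protein signalling and lower their local level.

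The codons around the first cysteines are shown for the ligands on which the results turn, in the coding sequence of GENCODE release M21 on GRCm38, 5′ to 3′ on the coding strand. Capitals mark the cysteine codons and, where present, the 3 ELR codons before them.
Ccl5: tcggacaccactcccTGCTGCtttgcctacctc
Ccl2: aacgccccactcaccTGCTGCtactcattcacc
Cxcl10: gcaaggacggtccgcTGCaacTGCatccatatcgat
Cxcl1: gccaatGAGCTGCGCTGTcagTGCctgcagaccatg
Cxcl2: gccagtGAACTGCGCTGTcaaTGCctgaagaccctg
Cxcl3: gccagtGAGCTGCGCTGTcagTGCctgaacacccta
Cxcl5: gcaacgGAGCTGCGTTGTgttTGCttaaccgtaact
Cxcl15: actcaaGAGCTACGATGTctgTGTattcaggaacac
Ccl5 (chr11:83529230-83529262, minus strand) and Ccl2 (chr11:82036491-82036523, plus strand) have adjacent cysteine codons. Cxcl10 (chr5:92348169-92348204, minus strand) has 1 codon between them and no ELR codons. Cxcl1 (chr5:90891481-90891516), Cxcl2 (chr5:90904127-90904162), Cxcl3 (chr5:90786353-90786388), Cxcl5 (chr5:90759712-90759747) and Cxcl15 (chr5:90795213-90795248), all on the plus strand, carry the ELR codons. All these windows are exonic. Of the 38 ligands, 23 had the CC pattern, 5 the CXC pattern with ELR, 7 the CXC pattern without it, 1 the CX3C pattern (Cx3cl1) and 1 a single cysteine (Xcl1). The search found no such pattern in Cxcl17.

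The lanes held 2497048 to 2611740 estimated counts each, and the WT and CD36_KO libraries 10071960 and 10363391. Cd36 itself had 287, 299, 307 and 301 counts in the WT lanes and 107, 86, 88 and 77 in the CD36_KO lanes, a log2 ratio of -1.98 (95% interval -2.15 to -1.80). Gene positions written as chromosome, start and end span the whole gene in GENCODE M21 on GRCm38. All ratios are CD36_KO over WT and, unless TPM is named, use CPM (counts per 1000000 of the library size scaled by the TMM method). Intervals are exact Clopper-Pearson intervals of a gene's split between the libraries and cover counting error only. Without molecular identifiers, repeat reads of 1 molecule cannot be set apart. Genes of the CD8 T cell marker list were present. Its 12 genes summed to 154 TPM (transcripts per 1000000, a level per length) in WT and to 765 TPM in CD36_KO. Among them Cd8a (10.6 and 59.0 TPM) and Cd8b1 (11.2 and 64.4 TPM) are the CD8 genes, and the others are not particular to CD8 T cells. Melanoma markers summed to 1244 and 434 TPM and macrophage and monocyte markers to 1767 and 1958 TPM, and no gene of the 11 marker lists was at 0 in either library. Hepatocyte markers had the largest median ratio of the lists, 2.84, with 9 of 9 genes higher and summed levels of 105 to 136 CPM in the WT lanes and 850.0 to 857 CPM in the CD36_KO lanes, led in TPM by Alb, the albumin gene (15.2 and 147). Dendritic cell markers had 2 of 8 measured genes lower, Fscn1 (-2.31) and Clec10a (-1.30), and 0 higher, with a median of -0.25, summed levels of 258 to 299 and 240 to 263 CPM, and Itgax the most abundant (22.3 and 44.7 TPM). The part of these cells in the chemokine and receptor values was not tested. In such bulk samples fewer cells of a type and less RNA per cell cannot be told apart.

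Of the measured receptor genes 5 of 12 were higher in the CD36_KO library and 1 was lower, while of the measured ligand genes 2 of 16 were higher and 5 lower. Of the 60 genes, 28 were measured, meaning a mean of at least 5 CPM. A gene was called higher or lower when it differed at least 2-fold and its interval excluded no difference. By this rule 7 were higher (Ccl5, Cxcl15, Cx3cr1, Cxcr6, Ccr7, Ccr9 and Cxcr2), 6 were lower (Ackr3, Cxcl2, Cxcl10, Ccl3, Ccl2 and Ccl7) and 15 lay between. Some called genes reached the mean of 5 CPM only through the library where they were high. In WT this held for Cxcl15 (2.87 CPM there). In CD36_KO it held for Ackr3 (4.96 CPM there), Ccl7 (4.87), Ccl3 (3.51) and Cxcl10 (2.61). These counts of 7 and 6 among 28 stand beside a background in which 6.5% of the 12177 measured genes were called higher and 10.8% lower. The split depended on the scaling, with 9 higher and 5 lower under total counts and 9 higher and 2 lower on the log2(TPM + 1) scale. The 16 measured ligands had a median log2 ratio of -0.62. The 12 measured receptors, Ackr3 included, had a median of 0.88, beside a median of -0.13 over all measured genes. On the log2(TPM + 1) scale, where the median of all measured genes lay at 0.37, a shift of 0.50, the ligand and receptor medians were -0.01 and 1.22. Relative to all measured genes the ligand median was -0.49 with TMM and -0.38 with TPM, and the receptor median 1.01 and 0.85.

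**Figure D1:**
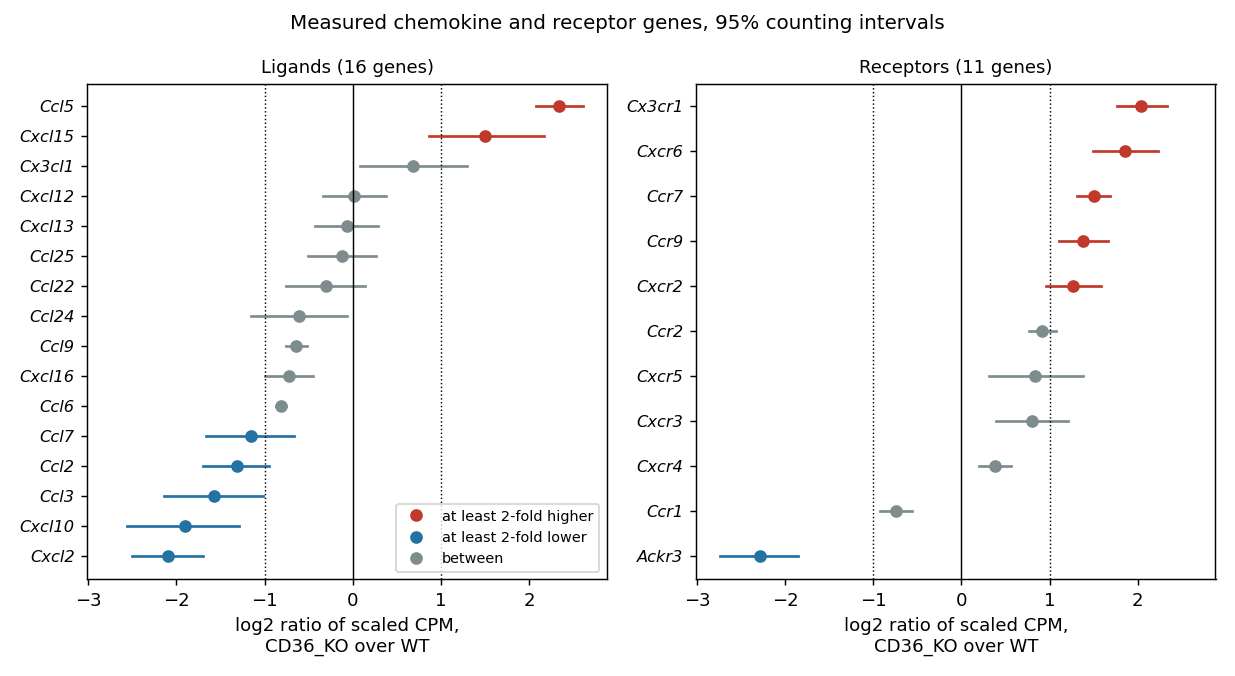
Log2 ratio of scaled CPM, CD36_KO over WT, for the 16 measured ligands (left) and 11 of the 12 measured receptors (right). Points are genes, lines are 95% counting intervals, dotted lines mark a 2-fold difference, and colour gives the call. Ccl5 (2.34) leads the ligands and Cx3cr1 (2.04) the receptors, while Ackr3 (-2.29) and Cxcl2 (-2.09) lie lowest.

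Among the 9 measured CC ligands, 1 was higher, Ccl5, and 3 were lower. Ccl5 (RANTES, chr11:83525778-83530518, a ligand of Ccr1 and Ccr3 made by activated T and NK cells) had 35, 37, 29 and 36 counts in the WT lanes and 213, 207, 187 and 213 in the CD36_KO lanes. Every CD36_KO lane lay far above every WT lane. The log2 ratio was 2.34 (2.08 to 2.61), or 5.07-fold in CPM, and in TPM the levels were 18.01 ± 2.17 and 144 ± 8.87 (SD over 4 lanes of 1 library, not over animals). All 12 CD8 T cell markers were higher, with log2 ratios from 1.20 to 2.26, and their summed level was 345 to 361 CPM in the WT lanes and 1171 to 1217 CPM in the CD36_KO lanes. The NK and innate lymphoid list had 4 of 5 measured genes higher, with a median of 1.29 and summed levels of 135 to 157 CPM and 181 to 196 CPM. The most abundant gene of each list was Trbc2, a T cell receptor constant chain (28.3 and 168 TPM), and Tyrobp, an adaptor that myeloid cells also carry (120 and 160 TPM). The part of cell content in the Ccl5 ratio was not tested.

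Ccl2 and Ccl7, which attract monocytes, were lower. Ccl2 (MCP-1, chr11:82035571-82037453, a main ligand of Ccr2) had 44, 53, 43 and 48 counts in the WT lanes and 19, 21, 29 and 20 in the CD36_KO lanes, a log2 ratio of -1.32 (-1.70 to -0.95). Ccl7 (chr11:82045712-82047525), which also binds Ccr2, had 102 against 54 counts, a log2 ratio of -1.16 (-1.66 to -0.67). In both genes the lanes of the libraries did not overlap, but on the log2(TPM + 1) scale the differences were -0.65 and -0.48, short of 2-fold. With total counts, or over protein-coding transcripts only, Ccl7 was also short of it. Ccl12, another Ccr2 ligand of the mouse, had 31 against 10 counts (-1.87, -3.06 to -0.80) and was under 5 CPM.

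The other measured ligands of Ccr1 were not called higher. Ccl3 (MIP-1α, chr11:83647844-83649355) had 23, 29, 19 and 27 counts in the WT lanes and 11, 9, 11 and 8 in the CD36_KO lanes. Its log2 ratio was -1.57 (-2.14 to -1.02), and -0.82 on the log2(TPM + 1) scale. Its partner Ccl4 (MIP-1β) had 33 and 32 counts, under 5 CPM, with an interval of -1.03 to 0.46 that leaves a 2-fold lower level possible. Ccl6 and Ccl9, CC chemokines of mouse myeloid cells that bind Ccr1, were by far the most counted ligands. Ccl6 had 6683 counts against 4485 (log2 ratio -0.81, -0.87 to -0.76) and Ccl9 1346 against 1019 (-0.64, -0.76 to -0.52). In TPM the difference of Ccl6 shrank to -0.16 and that of Ccl9 turned to 0.22, so the direction of Ccl9 depended on the scaling. Macrophage and monocyte markers had 3 of 12 genes lower, 0 higher and a median of -0.39, with summed levels of 4934 to 4973 CPM in the WT lanes and 3674 to 3699 CPM in the CD36_KO lanes. Lyz2, macrophage lysozyme, was the most abundant of them (1316 and 1520 TPM). Their part in these ligands was not tested.

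The remaining measured CC ligands lay between. Ccl22, a dendritic cell ligand of Ccr4, had 89 and 85 counts (-0.30, -0.75 to 0.14), and 0.14 in TPM. Ccl24 (eotaxin-2, a ligand of Ccr3) had 67 and 52 counts (-0.60, -1.16 to -0.06). Ccl25, the ligand of Ccr9, had 111 and 120 counts (-0.13, -0.51 to 0.26), of which protein-coding transcripts took 5.38% and 1.67%. Its largest transcripts by counts were a pair with retained introns, with 49 and 61 counts and with 45.5 and 39.0 counts.

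Of the ELR group of CXC ligands chosen by name, which act on neutrophils, Cxcl2 was lower and Cxcl15 higher, and the other 3 were under 5 CPM. Cxcl2 (MIP-2, chr5:90903871-90905938) had 60, 57, 75 and 54 counts in the WT lanes and 15, 21, 14 and 18 in the CD36_KO lanes. This gave a log2 ratio of -2.09 (-2.50 to -1.70), a 4.27-fold difference, and -1.35 on the log2(TPM + 1) scale. Cxcl1 (KC), Cxcl3 and Cxcl5 (LIX) averaged under 5 CPM and so were not called, and their ratios were below 0, in TPM as well. Cxcl1 had 54 counts against 14 (-2.19, -3.15 to -1.32). Cxcl3 had 22 against 5 (-2.38, -4.13 to -0.94) and Cxcl5 78 against 8 (-3.52, -4.79 to -2.47). In Cxcl1, Cxcl3 and Cxcl5 the CD36_KO lanes lay below all WT lanes. Cxcl15 (lungkine, chr5:90794534-90803067, a product of lung epithelium) went the other way, with 27 against 90 counts and a log2 ratio of 1.499 (0.86 to 2.18). Lung epithelium markers were higher in 5 of 7 measured genes, lower in 0, with a median of 1.44 and summed levels of 64.9 to 74.6 CPM and 207 to 223 CPM. Scgb1a1, the club cell secretoglobin, was the most abundant (23.2 and 177 TPM). Their part in the Cxcl15 ratio was not tested.

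Promoter stretches are shown for Cxcl1, Cxcl2, Cxcl3 and Cxcl10, the ligands lying at least 2-fold lower in which a κB motif was found. Cxcl1 and Cxcl3, under 5 CPM, were added after their values were seen. They come from the RefSeq promoter table on GRCm38.p6, which holds 45 of the 60 genes, with 250 bases before and 50 after the start site. Capitals mark matches to the κB motif (GGGANN followed directly by TNCC) on either strand and, in Cxcl10, to the interferon response motif (GAAANN followed directly by GAAA), which does not overlap the κB matches.
Cxcl1: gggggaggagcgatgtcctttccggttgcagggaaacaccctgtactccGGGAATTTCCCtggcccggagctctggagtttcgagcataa
Cxcl2: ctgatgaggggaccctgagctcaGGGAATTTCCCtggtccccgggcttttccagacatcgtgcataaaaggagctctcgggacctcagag
Cxcl3: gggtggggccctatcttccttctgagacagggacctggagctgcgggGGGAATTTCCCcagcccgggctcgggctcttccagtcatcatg
Cxcl10: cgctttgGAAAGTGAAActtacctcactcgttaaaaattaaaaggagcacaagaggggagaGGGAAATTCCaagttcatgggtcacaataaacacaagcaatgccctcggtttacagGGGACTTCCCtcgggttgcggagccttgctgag
The stretches are chr5:90891125-90891214, chr5:90903779-90903868 and chr5:90785981-90786070 on the plus strand and chr5:92348960-92349109 on the minus strand, all upstream of the start site. In Cxcl1, Cxcl2 and Cxcl3 the match begins 71, 97 and 73 bases before the start site and reads on both strands, shifted by 1 base. Cxcl10 has κB matches beginning 159 and 103 bases before the start site and the interferon response motif at 213 bases. The κB motif was in 4.01% of the 32851 promoters of the table and, counted by gene, in 7 of the 45 genes here. Among the 20 measured genes in the table, 2 had it. Besides the genes shown, it was in Ccl1 (0 counts in both libraries), Ccr3 (8 and 29 counts) and Ccr6 (16 and 22 counts), all under 5 CPM. No match was found for Ccl2, Ccl3, Ccl7, Ccl12 or Cxcl5, also at least 2-fold lower, some of which may lie outside the 45 genes. The interferon response motif was in 3.44% of all promoters and, besides Cxcl10, in Ccl19 and Cxcl14. A match is a description of letters, not of binding.

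CXC ligands without ELR held 1 lower gene. Cxcl10 (IP-10, chr5:92346638-92348889, an interferon-induced ligand of Cxcr3) had 23, 22, 25 and 22 counts in the WT lanes and 6, 7, 10 and 6 in the CD36_KO lanes. Its log2 ratio was -1.90 (-2.56 to -1.29), and -0.96 on the log2(TPM + 1) scale. The other Cxcr3 ligands were sparse, Cxcl9 with 25 and 19 counts and Cxcl11 with 3 and 11. Cxcl16, a membrane-bound ligand of Cxcr6, had 272 and 195 counts (-0.72, -0.99 to -0.45). Cxcl12, the ligand of Cxcr4, had 124 and 148 counts (0.02, -0.34 to 0.37), and Cxcl13, the B cell attractant that binds Cxcr5, 129 and 145 (-0.07, -0.42 to 0.28). The intervals of Cxcl12 and Cxcl13 stayed within 2-fold. Cx3cl1 (fractalkine), the ligand of Cx3cr1, had 37 and 70 counts (0.68, 0.09 to 1.30). Xcl1, a ligand made by T and NK cells, had 21 and 19 counts, and its receptor Xcr1, found on cross-presenting dendritic cells, 31 and 29.

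Cx3cr1, Cxcr6, Ccr7 and Ccr9 were higher in the CD36_KO library. Cx3cr1, the fractalkine receptor of effector T cells and monocytes (chr9:119901616-120069879), had 33, 36, 33 and 22 counts in the WT lanes and 155, 152, 139 and 156 in the CD36_KO lanes (log2 ratio 2.04, 1.76 to 2.33). Cxcr6, a receptor of tissue-resident and tumour T cells (chr9:123806475-123811760), had 17, 16, 23 and 22 against 85, 94, 67 and 87 counts (1.86, 1.496 to 2.23). Ccr7, the lymph node homing receptor of naive and central memory T cells (chr11:99144196-99155077), had 82, 79, 79 and 71 against 260, 268, 280 and 230 counts (1.501, 1.32 to 1.69). Ccr9, a gut homing receptor (chr9:123678439-123784330), had 36, 33, 45 and 27 against 124, 110, 102 and 94 counts (1.38, 1.10 to 1.67). In these 4 genes no WT lane reached a CD36_KO lane. All 4 ratios lay inside the range of the CD8 T cell markers, 1.20 to 2.26. They also lay inside the ranges of neutrophil (0.84 to 2.19), lung epithelium (0.89 to 2.86) and endothelial markers (-0.20 to 2.36). The endothelial range reached that high through Erg (2.36), with Pecam1 next at 0.73. Only Cx3cr1 and Cxcr6 lay inside the range of B cell markers (1.64 to 2.80). Only Ccr7 and Ccr9 lay inside that of NK and innate lymphoid markers (-0.24 to 1.76). No ratio of the 4 lay inside the range of the remaining lists, macrophage and monocyte markers (-1.46 to 0.17) among them. The part of any of these cells in the 4 ratios was not tested.

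The ratios of Cxcr3, Cxcr4 and Cxcr5 lay below the range of the CD8 T cell markers, but the intervals of Cxcr3 and Cxcr5 reached into it. Cxcr3, a receptor of type 1 effector T cells, had 76 and 156 counts (0.80, 0.39 to 1.21), with lanes that overlapped. Cxcr4, the Cxcl12 receptor of many leukocytes, had 415 and 635 (0.38, 0.19 to 0.56). Cxcr5, a receptor of B cells and follicular T cells, had 46 and 97 counts (0.84, 0.32 to 1.38). B cell markers were higher in 7 of 7 measured genes, with a median of 2.61 and summed levels of 54.1 to 63.0 CPM and 211 to 228 CPM, and Ighm, the IgM heavy chain, led them (13.5 and 61.9 TPM). The part of CD8 T cells and B cells in these receptor ratios was not tested. Cxcr3 was at least 2-fold higher in TPM and without WT lane 2, and Cxcr5 with total counts and without WT lane 4.

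Receptors known from myeloid cells did not move together. Cxcr2, the neutrophil receptor for the ELR ligands (chr1:74153989-74161246), had 27, 29, 36 and 26 counts in the WT lanes and 87, 76, 91 and 80 in the CD36_KO lanes, a log2 ratio of 1.26 (0.96 to 1.58). Neutrophil markers were higher in 4 of 5 measured genes, lower in 0, with a median of 1.87 and summed levels of 69.4 to 82.3 CPM and 226 to 250 CPM. S100a8, a calprotectin subunit, led them in TPM (21.4 and 126). Cxcr1, the close relative of Cxcr2, had 39 and 22 counts (-1.06, -1.89 to -0.27), under 5 CPM. Ccr2, the receptor of recruited monocytes that some T cells also carry, had 127, 142, 127 and 140 counts against 279, 322, 292 and 302. Its lanes did not overlap, and its log2 ratio of 0.92 (0.77 to 1.07) fell just short of 2-fold. It passed with total counts, in TPM, over protein-coding transcripts only and without WT lane 2 or WT lane 4. Ccr1, a receptor of macrophages and neutrophils, had 637 and 449 counts (-0.74, -0.92 to -0.57). The part of neutrophils and macrophages in these values was not tested.

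Ackr3 had the lowest CPM ratio of the 28 measured genes, while on the log2(TPM + 1) scale Cxcl2 (-1.35) was lower. This atypical receptor, which clears Cxcl12 (chr1:90203980-90216751), had 63, 63, 50 and 52 counts in the WT lanes and 18, 16, 9 and 12 in the CD36_KO lanes, a log2 ratio of -2.29 (-2.74 to -1.86). It was lower under each scaling tried, with -1.25 on the log2(TPM + 1) scale. Melanoma markers were lower in 10 of 10 genes (median -2.26, range -2.62 to -1.65), with summed levels of 5471 to 5693 CPM and 1320 to 1371 CPM, and Dct, a melanin synthesis enzyme, led them in TPM (324 and 104). Fibroblast markers were lower in 5 of 6 measured genes and higher in 0, with a median of -1.76 and summed levels of 1154 to 1203 CPM and 282 to 288 CPM, led in TPM by the collagen gene Col3a1 (54.1 and 19.9). Endothelial markers, from cells also known to carry Ackr3, had 1 of 7 measured genes higher, 0 lower and a median of 0.58, with summed levels of 262 to 289 CPM and 405 to 420 CPM, led in TPM by Pecam1 (9.67 and 25.2). The part of these cells in the Ackr3 ratio was not tested. Ackr2, which scavenges inflammatory CC chemokines, had 23 and 24 counts, Ackr4, which takes up the Ccr7 ligands, 14 and 22, and Ackr1 0 and 1.

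**Figure D2:**
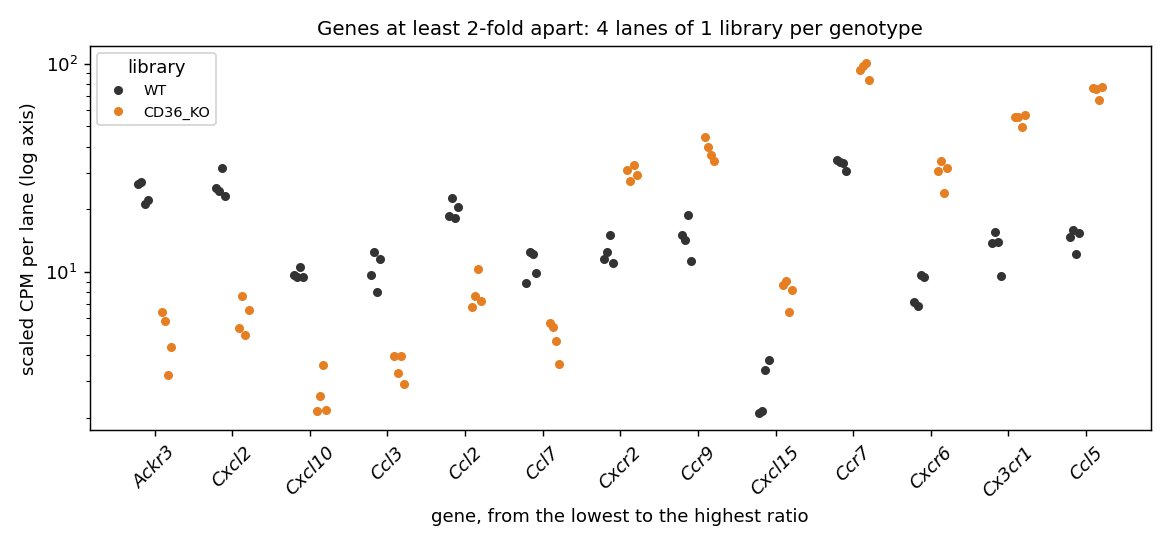
Scaled CPM in each of the 4 lanes of the WT (black) and CD36_KO (orange) libraries for the 13 genes at least 2-fold apart, on a log axis, ordered from the lowest ratio (Ackr3) to the highest (Ccl5). Points are lanes of 1 library and show technical spread only; in each of the 13 genes the lanes of the libraries do not overlap.

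The lanes of the libraries did not overlap in 20 of the 28 measured genes, where 52.9% of all measured genes had lanes that did not overlap. Lanes of a library are repeat reads of 1 preparation, so this separation describes sequencing error and not variation between mice.

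Levels per length showed which chemokine RNAs dominated. In TPM, Ccl6 alone made up 71.1% of the summed level of all ligands in WT and 55.1% in CD36_KO. This level includes a retained-intron transcript of 776 bases, with 39.9% of Ccl6 counts in WT and 44.7% in CD36_KO. Being shorter than the coding form of 1440 bases, it weighs more in TPM than in counts. Ccl9 (37.4 ± 2.10 TPM) ranked second in WT, ahead of Ccl5. In the CD36_KO library Ccl5 ranked second with 24.0% of the summed ligand level, up from 3.46%, and Ccl9 (43.8 ± 9.52 TPM) came after it. Among the receptors described, the highest in WT by TPM were Cxcr4 (13.7 ± 1.58), Ccr1 (11.7 ± 1.10), Ccr7 (8.41 ± 0.40) and Ccr2 (8.18 ± 0.90). Cxcr4 and Ccr1 differed by little more than their lane SD, and Ccr7 and Ccr2 by less. The highest in CD36_KO were Ccr7 (35.0 ± 2.79), Cxcr4 (26.5 ± 1.14), Ccr2 (22.7 ± 1.52), Cxcr6 (11.7 ± 1.58) and Cx3cr1 (10.7 ± 0.69). Ccr7, below Cxcr4 and Ccr1 in WT, was above both in CD36_KO, and Cxcr6 and Cx3cr1 reached the level of Ccr1 (10.2 ± 0.87). Summed receptor levels were 77.8 and 169 TPM, and summed ligand levels 521 and 600 TPM.

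**Figure D3:**
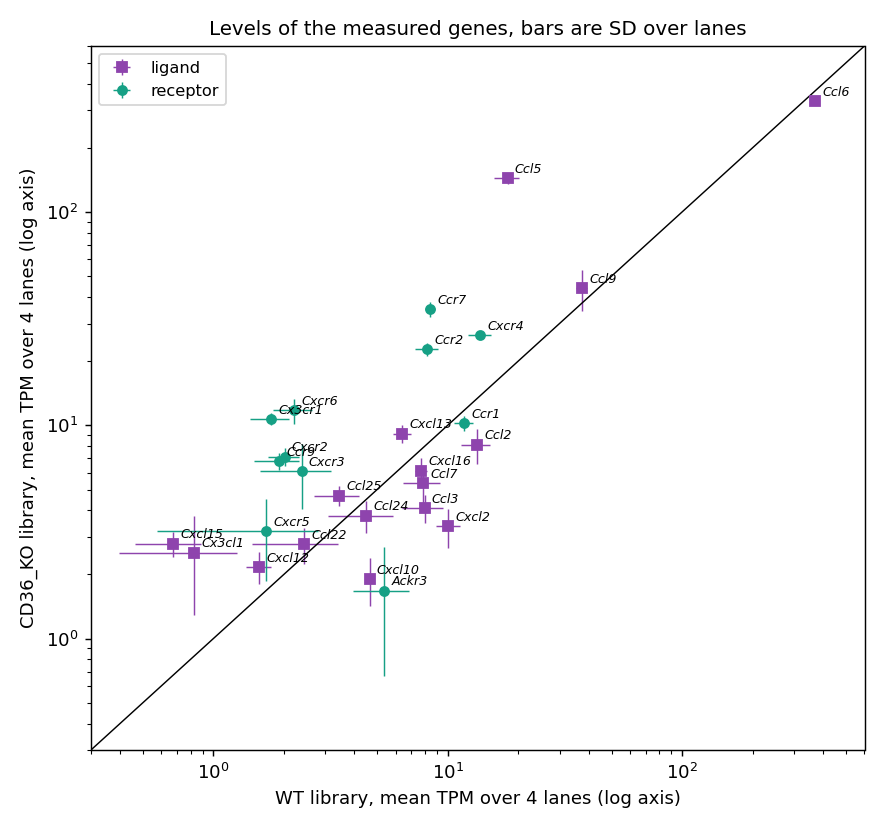
Mean TPM over 4 lanes in the WT library (x, log axis) against the CD36_KO library (y, log axis) for 27 of the 28 measured genes, ligands as squares and receptors as circles. Bars are the SD over lanes of 1 library and the line marks equal TPM; most receptors lie above the line, Ccl5 (18.01 and 144 TPM) lies furthest above it among the abundant genes, and Ackr3, Cxcl10 and Cxcl2 lie below it.

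Ligands were set beside their receptors in 39 known mouse pairs of 18 receptors, of which 15 had both genes measured. In 12 of the 15 the receptor had the larger log2 ratio. The exceptions were Ccl5 with Ccr1, Ccl9 with Ccr1, and Cxcl12 with Ackr3. Ccl6 with Ccr1, counted among the 12, was close to a tie (-0.81 and -0.74, with overlapping intervals). In TPM that pair went the other way, with Ccl6 at 31.6 times Ccr1 in WT and 32.3 times in CD36_KO. The widest gaps were those of Cxcl2 (-2.09) with Cxcr2 (1.26), Cxcl10 (-1.90) with Cxcr3 (0.80) and Cxcl16 (-0.72) with Cxcr6 (1.86), besides the Ccl5 pair with Ccr1 (2.34 against -0.74). Cxcl2 with Cxcr2 was the 1 measured pair with a ligand called lower and a receptor called higher. No pair of the 15 had both genes called in the same direction, and genes recur in several pairs, so pairs are not independent. Ppbp, a platelet chemokine that also binds Cxcr2 and was higher (1.47), is named outside the numbered scheme and was not paired. As TPM levels, Cxcl2 stood at 5.00 times Cxcr2 in WT and at 0.47 times in CD36_KO. Ccl2 stood at 1.63 and 0.36 times Ccr2, Cxcl10 at 1.95 and 0.31 times Cxcr3, and Cxcl16 at 3.48 and 0.52 times Cxcr6. Ccl5 went from 1.53 to 14.1 times Ccr1. The Ccr7 ligands Ccl19 and Ccl21a were sparse in both libraries, with 2 and 3 counts and with 7 and 17 counts.

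**Figure D4:**
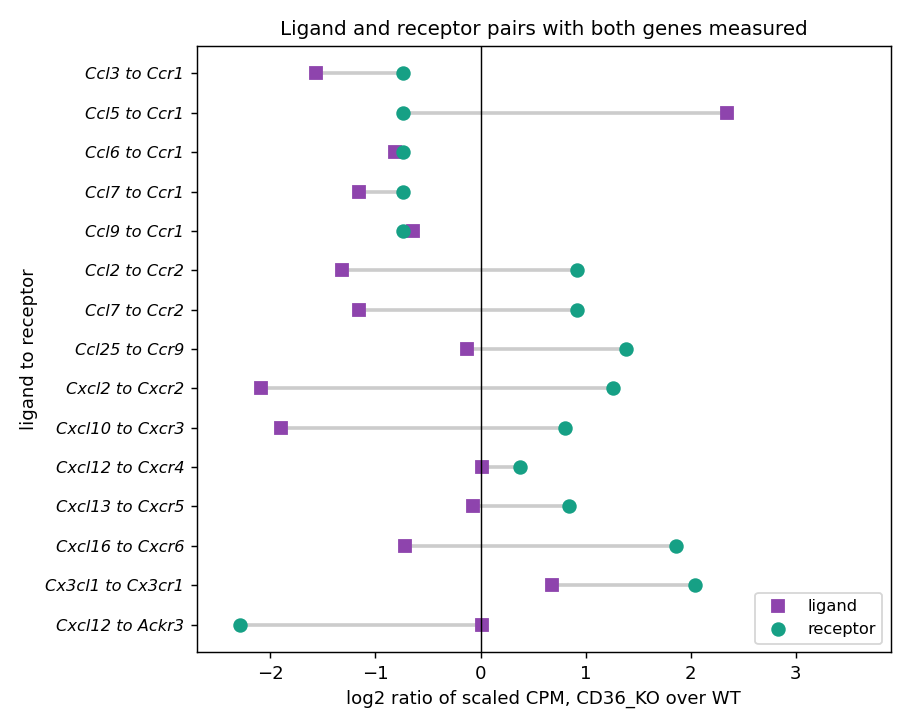
Log2 ratio of scaled CPM, CD36_KO over WT, of the ligand (square) and the receptor (circle) in the 15 pairs with both genes measured, 1 pair per line. In 12 pairs the receptor lies to the right of its ligand, only narrowly for Ccl6 and Ccr1. The pair of Ccl5 and Ccr1 is the widest exception.

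Neighbours in the chemokine gene clusters of GRCm38 did not share a direction throughout. On chromosome 11, Ccl2 and Ccl7 (82035571 to 82047525 for the pair, within a cluster that ends at 82305690) were both lower. In the next cluster on that chromosome, from 83525778 to 83664683, Ccl5 was higher and Ccl3 lower, with Ccl9 and Ccl6 between. On chromosome 5, from 90759360 to 90905938, the ELR genes chosen by name lie in the order Cxcl5, Cxcl3, Cxcl15, Cxcl1 and Cxcl2. Of these, Cxcl15, in the middle, was the 1 with a positive ratio. Ppbp, which was higher (1.47), is named outside the numbered scheme and was not placed in a cluster. In the receptor cluster on chromosome 9, from Ccr9 at 123678439 to Ccr2 ending at 124113557, Ccr9 and Cxcr6 were higher, while Ccr1 (-0.74) and Ccr2 (0.92) lay between.

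Of the 32 genes under 5 CPM, Ccl1, Ccl26 and Ccl27b had 0 counts in both libraries, where a count of 0 allows up to 3 counts per library. Besides the genes given above, the ligands Ccl8 (9 and 11 counts), Ccl11 (3 and 5), Ccl17 (19 and 21), Ccl20 (0 and 1), Ccl27a (6 and 16), Ccl28 (4 and 6), Cxcl14 (35 and 60) and Cxcl17 (1 and 6) had intervals that included no difference. Ccl21b, a near-identical copy of Ccl21a that shares its reads, had 1 count in each library. Of the sparse receptors, Ccr3, found on eosinophils, had 8 and 29 counts (1.62, 0.45 to 2.96). Ccr8, found on tumour regulatory T cells, had 11 and 3 counts (-2.11, -4.59 to -0.19), and Ccr10, a skin homing receptor, 18 and 9 (-1.24, -2.58 to -0.01). These 3 intervals exclude no difference on few counts. Ccr4, a receptor of type 2 and regulatory T cells, had 7 and 20 counts (1.28, -0.02 to 2.76).

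Chemokines named outside the numbered scheme, and the genes through which the receptors act, were read from lists. Of 7 measured genes in the first of these, Ppbp, the platelet chemokine that also binds Cxcr2, was higher (91 and 298 counts, 1.47) and Pf4, platelet factor 4, lower (339 and 199, -1.01, and -0.30 in TPM). The chemerin receptor gene Cmklr1 had a value of -0.84, and 0.07 in TPM. Among 10 measured G protein genes and regulators, 1 was lower and 0 higher (median -0.02). That gene was Rgs1, which ends G protein signalling from chemokine receptors (829 and 472 counts, -1.05, and -0.56 in TPM). Rgs2 had 0.67, and the most abundant, Gnb1, -0.59. Receptor kinases and arrestins had 1 of 7 higher, 0 lower and a median of 0.40. Grk3, which phosphorylates active receptors, was the higher one (168 and 538 counts, 1.44), and Grk6 and Grk2 had values of 0.56 and 0.52. Arrb2, β-arrestin 2, the most abundant, had a value of 0.06.

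In the phosphoinositide and calcium branch 2 of 13 genes were higher, 0 lower, with a median of 0.29. These were Pik3cd, the leukocyte PI3K catalytic subunit (999 and 2951 counts, 1.32), and the protein kinase gene Prkcb (386 and 931, 1.03), followed by Itpr3 at 0.89. In the Rac, Rap and actin branch 1 of 20 was higher, 0 lower, with a median of 0.26. Coro1a, an actin regulator of leukocytes, was that gene (1492 and 3567 counts, 1.02). Dock2, the Rac activator through which lymphocytes migrate to chemokines, had 2456 and 5598 counts (0.95), and Rassf5, a Rap effector, had 0.89. Cfl1, the most abundant, had a value of -0.53. Genes that modify or hold chemokines had 1 of 12 higher, 2 lower and a median of -0.42. Dpp4, the protease that trims Cxcl10 and Cxcl12, was higher (259 and 837 counts, 1.45), and the heparan sulphate proteoglycan genes Hspg2 (2163 and 655, -1.96) and Sdc4 (820 and 273, -1.82) were lower. Sdc3, the most abundant of them, had -0.94. These shares stand beside the 6.5% higher and 10.8% lower of all measured genes.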

How the data were processed

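The deposited files give, per transcript and lane, estimated counts that need not be whole and TPM, both made by the authors with kallisto on build GRCm38.p6 per the submitters' processing notes, which also name DESeq2. The sources used here give no version, annotation release, strand setting or read layout. TPM values are scaled by the authors for effective length and lane total, and pseudoalignment divides reads among similar transcripts: in 11 of 28 measured members a lane's gene total was over 0.01 from a whole count, a sign of reads shared with other genes.

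Estimated counts were summed over all transcripts of a gene and over 4 lanes, rounded, and scaled with TMM factors (0.934 for WT, 1.071 for CD36_KO; edgeR 4.0.16, R 4.3.3). Ratios carry exact 95% Clopper-Pearson intervals. No p-value is given, since 1 library per genotype leaves no replicate. Size factors of DESeq2 1.42.0, total counts, TPM scales, other filters, coding transcripts only and single lanes left out were alternatives. TPM calls use the fold alone, without an interval. The steps were tested on simulated data. Of gene identifiers, 99.67% matched GENCODE M21 without their version suffix, which gave coordinates.

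The members, lists, pairs and motifs were chosen with earlier results of these data known. By rule, all measured members are named, except 1 receptor that enters the counts and medians and is not reported here, and of each pathway list the 3 largest ratios and the most abundant gene.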

Additional observations from a re-analysis of the deposited data

Results flagged for a closer look

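Among the 28 measured genes, 1 lane stood apart from the other 3 of its library in 2 cases. In the CD36_KO library, Ccl25 had 11.99 CPM in lane 4 against 10.4 to 10.5 CPM in the others, and Cxcl12 had 15.6 CPM in lane 4 against 12.5 to 12.7 CPM. A gap this large arises by chance in about 1 in 20 groups of 4 lanes, and 28 genes in 2 libraries were examined. Neither gene was called.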

How the results depend on the processing

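The 7 higher genes were called under every scaling and every left-out lane, and with DESeq2 size factors the 6 lower genes were too; no called gene changed sign under any alternative. Lower calls fell to 2 (Ackr3 and Cxcl2) on the log2(TPM + 1) scale and 3 on the log2(TPM + 0.1) scale, with 9 and 10 higher. With total counts, and over protein-coding transcripts only, 5 of the 6 were called, Ccl7 being short of 2-fold in both. The filter mattered for lower genes, where 5 CPM was replaced: 12 at 1 CPM, 13 with no filter and 0 at 20 CPM. The ligand median was -0.42 with total counts, -0.013 with log2(TPM + 1), 0.00943 with log2(TPM + 0.1), -0.37 over protein-coding transcripts and -0.26 with no filter. The receptor median was 1.08 with total counts, 1.22 with log2(TPM + 1), 1.39 with log2(TPM + 0.1), 0.61 at 1 CPM, 1.09 at 20 CPM and 0.41 with no filter. Leaving out 1 lane gave 7 to 9 higher, 6 lower, ligand medians of -0.64 to -0.54 and receptor medians of 0.86 to 1.10. The cause of these shifts was not tested, except that the filters change which genes enter. Ccl9, Ccl22, Ccl25 and Cxcl13 changed sign in TPM (Ccl25 and Cxcl13 with total counts too), Cxcl13 also over protein-coding transcripts only and without WT lane 1 or WT lane 4, and Cxcl12 without WT lane 2 or CD36_KO lane 4. No paired analysis was possible because the samples are lanes of 1 library per genotype and the values come from no test. Depth limited the 32 genes under 5 CPM.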

Other observations

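Transcript estimates, which divide reads among overlapping forms and are less certain than gene totals, differed between the libraries for some ligands. Protein-coding transcripts took 41.2% of Cxcl2 counts in WT and 63.2% in CD36_KO, the rest lying on transcripts with a retained intron. For Cxcl16 these shares were 58.2% and 70.3%, and for Ccl6 59.7% and 54.9%. Among receptors, the Ccr2 transcript of 2999 bases took 12.7% of Ccr2 counts in WT and 27.96% in CD36_KO, and the Ccr2 transcripts with most counts are protein-coding. No transcript difference was tested.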
